A study of Mus musculus with 12 samples.

Results

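The insulin-like growth factor (IGF) axis was followed here as 10 transcripts in the soleus, the slow muscle of the calf that holds posture: the ligands Igf1 and Igf2, the receptors Igf1r and Insr, the docking protein Irs1 and the binding proteins Igfbp3, Igfbp4, Igfbp5, Igfbp6 and Igfbp7. The members were taken by name, after the Ensembl identifiers of the deposited table had been matched to mouse symbols, and all 10 were found among its 30323 genes. All 10 also averaged at least 1 TPM, a length-scaled transcript abundance, the minimum for testing, which 10757 genes met. IGFs are secreted growth factors that act on their own cell and its neighbours as well as through the blood. IGF1 and IGF2 bind the IGF1 receptor, IGF2 also binds a short form of the insulin receptor, and both receptors phosphorylate IRS1, which passes the signal to PI3 kinase, AKT and mTOR. In skeletal muscle this route is known for growth, glucose uptake and the restraint of protein breakdown, while the binding proteins hold IGFs outside the cell and release or withhold them.

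The mice were C57BL/6N males, 24 months old, from an aging colony, and all of them, controls included, were housed singly with a running wheel for 8 weeks. They were called high functioning (HF) or low functioning (LF) by how they performed on an accelerating rotarod, and the soleus was taken 5 days after a laparotomy, a surgical opening of the abdomen, or from age-matched controls. The 4 groups of 3 libraries each were HF laparotomy, HF control, LF laparotomy and LF control. No label or protocol text used here says what the control mice underwent. The replicate numbers only name libraries. Nothing in the labels ties a library to its own mouse, so the p-values reflect library-to-library spread only, and that spread may be technical.

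TPM is a level scaled for transcript length and for a fixed library total. Levels of different genes can therefore be compared, but no read depth can be given. Between 16993 and 18148 genes were above 0 per library, and Myh7, the slow myosin heavy chain that marks the soleus, lay at 2179 to 3339 TPM. A few libraries stood apart. HF laparotomy 2, LF laparotomy 1 and LF control 3 held 90.8, 62.4 and 33.5 TPM of Myh4, the fast myosin heavy chain, against at most 5.93 TPM in the others. HF laparotomy 3 had the highest sum over 7 Schwann cell markers (251 TPM) and over 9 markers of fibroadipogenic cells, the connective tissue cells of muscle (414 TPM), with LF control 1 close behind in the second sum (410 TPM). In bulk muscle, fewer cells of a type and less RNA per cell cannot be told apart.

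Igfbp7, Igfbp5, Igfbp4 and Igfbp6 had the highest mean levels of the members, and Irs1, Igf1r and Igf1 the lowest, while Igfbp3 lay below Insr and Igf2. Averaged over the 12 libraries, Igfbp7 stood at 49.1 TPM and Igfbp5 at 36.0 TPM, followed by Igfbp4 (17.9 TPM), Igfbp6 (16.1 TPM), Insr (14.6 TPM), Igf2 (9.55 TPM) and Igfbp3 (8.24 TPM). Irs1 (2.62 TPM), Igf1r (2.12 TPM) and Igf1 (1.21 TPM) lay at the low end. Igfbp5 was above Igfbp4, Igfbp3 above Irs1, and Igf1r above Igf1 in 12 of 12 libraries. The other neighbours in this order crossed in some libraries: Igfbp7 was above Igfbp5 in 9, Igfbp4 above Igfbp6 in 9, Igfbp6 above Insr in 7, Insr above Igf2 in 10, Igf2 above Igfbp3 in 10 and Irs1 above Igf1r in 5. Irs1 varied most, with a coefficient of variation of 49.0% over the 12 libraries, and Igf1r least, with 12.1%.

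**Figure D1:**
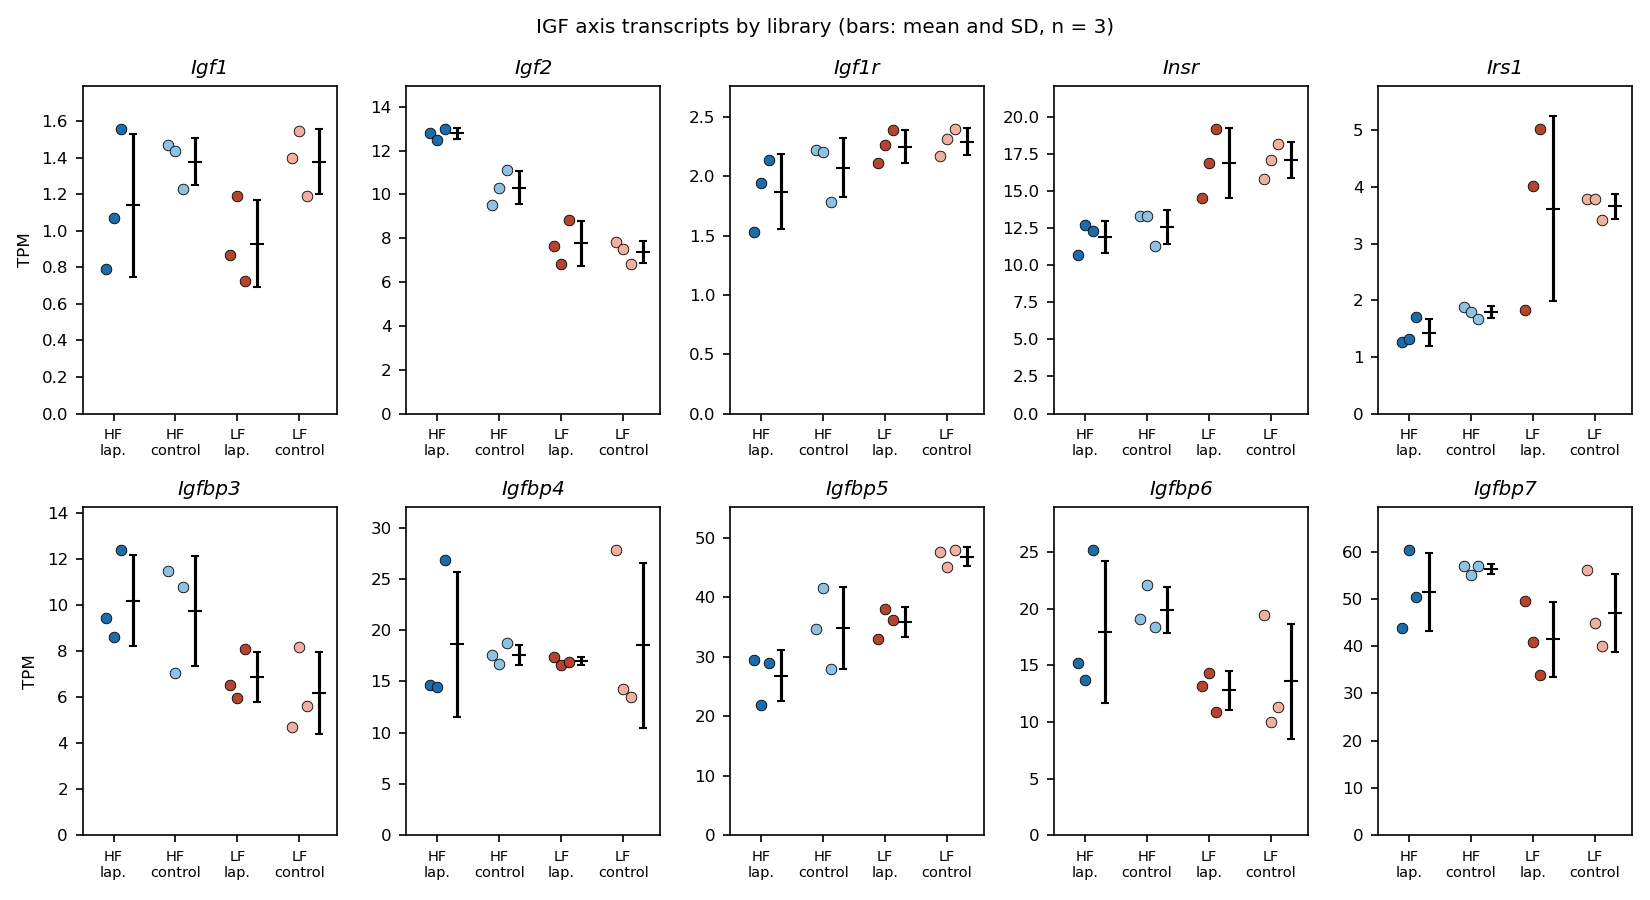
TPM of each of the 10 members (y axis, starting at 0, own scale per panel) in the 12 libraries, by group (x axis); points are libraries, and the bar beside them is the mean with its SD (n = 3). Igf2 lies higher in every HF library than in any LF library, Insr lower, and Igfbp5 is highest in LF control (45.0 to 47.9 TPM).

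The first comparison asks how HF and LF muscle differ, averaged over laparotomy and control, with 6 libraries on each side. Of the 10 members, 7 passed limma's test at an adjusted p under 0.05: Igf2, Igfbp3, Igfbp6 and Igfbp7 rose in HF, and Insr, Irs1 and Igfbp5 fell. Across all tested genes 41.3% were called in this comparison, 6.03% higher and 35.3% lower, so a call as such was common and a call as higher was not. That split moved with the scaling, since 14.6% of the calls were higher in TPM as deposited and 43.5% after median-of-ratios size factors. The median log2 difference of all tested genes was -0.15. Every log2 difference below is on the log2(TPM + 1) scale, ± its standard error. Unless given as deposited, it had the all-gene median of its own comparison subtracted, while the p-value tests the difference before this shift. For laparotomy against control, this median was -0.074 averaged over HF and LF, -0.029 in LF and -0.12 in HF. For the test of whether that difference itself differed between HF and LF, it was -0.091. Relative to the HF minus LF median of -0.15, the members' median was 0.20. The 4 higher and 3 lower members were called the same way with size factors.

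Igf2, the fetal growth ligand that is expressed from the paternal allele, lies at chr7:142650766-142666816 on the minus strand (GRCm38, GENCODE M21, as for all coordinates of genes here). It was listed at 12.8, 12.5 and 13 TPM in HF laparotomy, 9.54, 10.3 and 11.1 TPM in HF control, 7.66, 6.82 and 8.84 TPM in LF laparotomy and 7.81, 7.49 and 6.84 TPM in LF control. All HF libraries lay above all LF libraries, and the HF laparotomy libraries lay above those of HF control as well. The mean was 11.5 ± 1.44 TPM in HF and 7.58 ± 0.746 TPM in LF (SD, n = 6 each). The log2 difference was 0.69 ± 0.075, a 1.61-fold higher level on that scale (95% interval 0.53 to 0.85; limma adjusted p = 0.000476). It was called under every alternative computed, with adjusted p up to 0.00423. Of all tested genes 1.77% lay wholly above in HF. Like all shares of genes without overlap here, this was counted in TPM as deposited and not under other scalings. The Igf2 transcripts are shared nearly letter for letter with Gm49394, which is not analysed here, and Igf2os runs on the opposite strand, so the level of Igf2 is uncertain to the extent that reads were split among them.

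The sequences just before the RefSeq transcription starts of Igf2 and Igfbp3, which were higher in HF, and of Irs1, which was lower, are shown to set side by side promoters of members that differed in opposite directions. Each is 150 bases on the gene's own strand, 5′ to 3′, from RefSeq (GRCm38.p6), and all 3 genes are on minus strands. For Igf2, which has 4 entries, the last start is shown, at chr7:142657497-142657646. Irs1 is at chr1:82291440-82291589 and Igfbp3 at chr11:7213924-7214073. Capitals mark GC boxes in Igf2 and an E-box in Irs1.
Igf2: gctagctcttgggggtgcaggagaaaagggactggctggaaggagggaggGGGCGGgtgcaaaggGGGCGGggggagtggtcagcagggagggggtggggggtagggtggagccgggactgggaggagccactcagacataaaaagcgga
Irs1: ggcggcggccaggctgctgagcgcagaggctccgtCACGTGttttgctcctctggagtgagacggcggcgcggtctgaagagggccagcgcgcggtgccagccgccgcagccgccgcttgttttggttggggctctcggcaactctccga
Igfbp3: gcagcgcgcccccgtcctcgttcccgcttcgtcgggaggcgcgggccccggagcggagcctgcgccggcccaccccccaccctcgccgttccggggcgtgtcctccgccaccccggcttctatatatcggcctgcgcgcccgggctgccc
The search, on both strands, covered the TATA box (TATAAA), the CCAAT box (CCAAT), the GC box (GGGCGG), the E-box (CACGTG) and a site of FoxO factors (GTAAACA). Igf2 held 2 GC boxes in this window, Irs1 held 1 E-box, and Igfbp3 held none of the 5 motifs. The Igf2 windows not shown held 0, 0 and 1 GC boxes, and which start the soleus uses was not tested. Over 32851 promoter windows of the same length, 28.6% held a GC box, 4.3% an E-box, 7.57% a TATA box, 24.5% a CCAAT box and 1.8% a FoxO site. Of the 10 members, 9 had at least 1 promoter entry, and none of their 12 windows held a FoxO site.

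Igf1, the growth hormone-induced ligand made by liver and by muscle itself (chr10:87858265-87937042, plus strand), was the lowest member. Its level was 0.792, 1.07 and 1.56 TPM in HF laparotomy, 1.47, 1.44 and 1.23 TPM in HF control, 0.869, 1.19 and 0.728 TPM in LF laparotomy and 1.40, 1.55 and 1.19 TPM in LF control. The HF and LF ranges overlapped over most of their length. The HF minus LF log2 difference was 0.22 ± 0.098 relative to the median gene and 0.071 as deposited, and did not pass (limma adjusted p = 0.589, or 0.180 with size factors). The proportion of the ligands, Igf2 over Igf1 in TPM, was 6.51 to 16.2 in HF and 4.84 to 12.1 in LF libraries, and these ranges overlap.

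Insr, the insulin receptor (chr8:3122061-3279617, minus strand), was the most abundant of the receptor-side members. It stood at 10.7, 12.7 and 12.3 TPM in HF laparotomy, 13.3, 13.3 and 11.3 TPM in HF control, 14.5, 16.9 and 19.2 TPM in LF laparotomy and 15.8, 17.1 and 18.2 TPM in LF control. Every HF library lay below every LF library, as it did for 9.31% of all tested genes. The mean was 12.3 ± 1.08 TPM in HF and 17.0 ± 1.67 TPM in LF (SD, n = 6 each). The log2 difference was -0.29 ± 0.084 (95% interval -0.47 to -0.11; limma adjusted p = 0.00192), and it passed under every alternative, with adjusted p up to 0.00937. With a trend on transcript length and GC content removed the difference was -0.16.

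Igf1r, the IGF1 receptor (chr7:67952827-68233668, plus strand), did not pass. It was at 1.53, 1.94 and 2.14 TPM in HF laparotomy, 2.22, 2.20 and 1.78 TPM in HF control, 2.11, 2.26 and 2.39 TPM in LF laparotomy and 2.17, 2.31 and 2.40 TPM in LF control. The ranges overlapped, with the lowest libraries in HF. The difference was 0.0021 ± 0.078 relative to the median gene (95% interval -0.17 to 0.17) and -0.15 as deposited (limma adjusted p = 0.152). Insr over Igf1r in TPM was 5.72 to 6.99 in HF and 6.89 to 8.04 in LF libraries, so the proportions of the receptors overlapped only at their edges.

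Irs1, the docking protein that both receptors phosphorylate (chr1:82233101-82291416, minus strand), showed the largest spread. It was listed at 1.27, 1.31 and 1.71 TPM in HF laparotomy, 1.88, 1.80 and 1.67 TPM in HF control, 1.83, 4.01 and 5.03 TPM in LF laparotomy and 3.79, 3.79 and 3.41 TPM in LF control. LF laparotomy 1, a library with high Myh4, lay among the HF libraries, and the other LF libraries lay at 3.41 TPM or more, above all HF libraries. The mean was 1.61 ± 0.256 TPM in HF and 3.64 ± 1.04 TPM in LF (SD, n = 6 each). The log2 difference was -0.66 ± 0.15 (95% interval -0.97 to -0.34; limma adjusted p = 0.00158) and -0.79 without LF laparotomy 1 (limma adjusted p = 2.82e-05). Gm9747, which overlaps Irs1 on the opposite strand, averaged 12.9 TPM, and since it is not known here whether reads were assigned by strand, the level of Irs1 is uncertain.

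Among the binding proteins, 3 rose in HF and Igfbp5 fell, while Igfbp4 did not pass. Igfbp3, the main carrier of IGFs in blood (chr11:7206086-7213923, minus strand), was at 9.46, 8.62 and 12.4 TPM in HF laparotomy, 11.5, 7.05 and 10.8 TPM in HF control, 6.54, 5.98 and 8.08 TPM in LF laparotomy and 4.72, 8.17 and 5.62 TPM in LF control. HF control 2 (7.05 TPM) lay within the LF range, and the other HF libraries lay above all LF libraries. The mean was 9.96 ± 1.97 TPM in HF and 6.52 ± 1.38 TPM in LF (SD, n = 6 each). The log2 difference was 0.69 ± 0.14 (95% interval 0.38 to 1; limma adjusted p = 0.0100). Without HF laparotomy 3 and LF control 1, the pair with the highest fibroadipogenic sums, it was 0.56 (limma adjusted p = 0.0501).

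Igfbp5 (chr1:72857932-72874884, minus strand), a binding protein made by differentiating muscle cells, ran the other way. It was at 29.5, 21.9 and 29.0 TPM in HF laparotomy, 34.7, 41.6 and 27.9 TPM in HF control, 33.0, 38.0 and 36.2 TPM in LF laparotomy and 47.6, 45.0 and 47.9 TPM in LF control. LF control stood apart at the top, and HF control overlapped LF laparotomy. The mean was 30.8 ± 6.72 TPM in HF and 41.3 ± 6.35 TPM in LF (SD, n = 6 each), with a log2 difference of -0.28 ± 0.10 (95% interval -0.50 to -0.058; limma adjusted p = 0.00585). The call was lost under quantile normalization (limma adjusted p = 0.0533), and the difference was -0.12 with the length and GC trend removed.

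Igfbp6, which binds IGF2 in preference to IGF1 (chr15:102144362-102149511, plus strand), was at 15.2, 13.7 and 25.2 TPM in HF laparotomy, 19.1, 22.1 and 18.4 TPM in HF control, 13.2, 14.3 and 10.9 TPM in LF laparotomy and 19.5, 10 and 11.3 TPM in LF control. The ranges overlapped, and LF control 1 lay above HF laparotomy 1 and 2 and HF control 1 and 3. The mean was 18.9 ± 4.29 TPM in HF and 13.2 ± 3.44 TPM in LF (SD, n = 6 each). The log2 difference was 0.64 ± 0.17 (limma adjusted p = 0.0309), and the call was lost in 8 of 21 alternatives, among them leaving out HF laparotomy 3 (limma adjusted p = 0.066), HF control 2 (0.0589), LF laparotomy 3 (0.0701), LF control 2 (0.0794) or LF control 3 (0.0728). Without HF laparotomy 3 and LF control 1 together, the log2 difference was 0.66 (limma adjusted p = 0.00479).

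Igfbp7, a binding protein of low affinity for IGFs that is known from blood vessels (chr5:77349240-77408041, minus strand), was at 43.9, 60.3 and 50.3 TPM in HF laparotomy, 57.0, 55.1 and 56.9 TPM in HF control, 49.6, 40.8 and 33.8 TPM in LF laparotomy and 56.2, 44.8 and 40.0 TPM in LF control. The ranges overlapped widely, with HF laparotomy 1 below several LF libraries and LF control 1 above several HF libraries. The mean was 53.9 ± 5.91 TPM in HF and 44.2 ± 7.88 TPM in LF (SD, n = 6 each). Its log2 difference, 0.44 ± 0.11 (limma adjusted p = 0.0495), sat at the threshold and lost its call in 13 of 21 alternatives, with adjusted p between 0.0149 and 0.285. Leaving out any one library other than HF laparotomy 1, LF laparotomy 1 or LF control 1 ended it, with adjusted p between 0.0644 and 0.126. Polr2b, on the opposite strand at a mean of 13.4 TPM, overlaps Igfbp7, so its level is uncertain too.

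Igfbp4, which withholds IGFs from their receptor until it is cleaved (chr11:99041244-99054392, plus strand), was at 14.6, 14.4 and 26.8 TPM in HF laparotomy, 17.6, 16.7 and 18.7 TPM in HF control, 17.4, 16.6 and 16.9 TPM in LF laparotomy and 27.8, 14.3 and 13.5 TPM in LF control. HF laparotomy 3 and LF control 1, the pair with the highest fibroadipogenic sums, stood above all the other libraries. The HF minus LF difference was 0.18 ± 0.18 (95% interval -0.20 to 0.56; limma adjusted p = 0.894) and 0.22 without that pair (limma adjusted p = 0.619).

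Summed over the 5 binding proteins, the level was 113 to 144 TPM in HF and 106 to 156 TPM in LF libraries, and these totals overlapped over most of their range. Igfbp5 held 18.4% to 29.2% of the sum in HF and 27.6% to 40.5% in LF libraries. Igfbp3 held 4.94% to 8.63% in HF and 3.03% to 7.63% in LF, and Igfbp7 held 35.0% to 50.7% in HF and 31.9% to 41.4% in LF. Igfbp5 over Igfbp3 in TPM was 2.34 to 5.91 in HF and 4.48 to 10.1 in LF. These proportions are descriptions and carry no test.

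**Figure D2:**
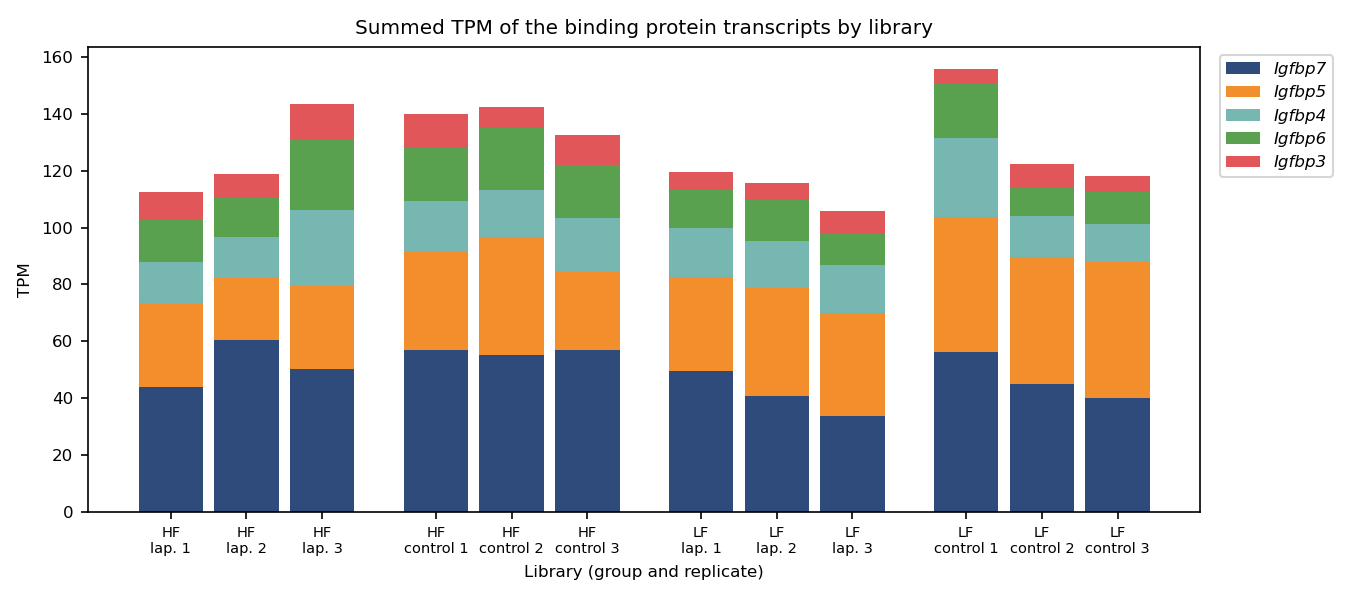
Stacked TPM (y axis, starting at 0) of Igfbp7, Igfbp5, Igfbp4, Igfbp6 and Igfbp3 in each library (x axis, 3 per group). The totals of HF (113 to 144 TPM) and LF (106 to 156 TPM) overlap, and the Igfbp5 layer is thickest in LF control.

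Markers of several cell types moved with this comparison, in both directions. Of 11 endothelial markers, 4 were called higher in HF and 0 lower (median 0.38, against 0 by construction for all tested genes), with sums of 397 to 557 TPM in HF and 327 to 414 TPM in LF. Egfl7, an endothelial secreted factor, had a log2 difference of 0.77 ± 0.073 (limma adjusted p = 0.000310). Only Ly6c1 (149 to 242 TPM in HF, 114 to 137 TPM in LF) and Egfl7 (71.0 to 94.0 and 48.1 to 56.1 TPM) were without overlap. Of all tested genes 1.77% lay wholly above in HF. The other endothelial markers overlapped, among them Pecam1 (35.5 to 52.7 and 33.5 to 47.1 TPM), Cdh5 (32.5 to 53.2 and 29.0 to 45.8 TPM) and Kdr (12.6 to 25.1 and 13.2 to 19.8 TPM). Of 6 tested Schwann cell markers 3 were higher and 0 lower (sums 79.8 to 251 TPM in HF and 64.5 to 79.5 TPM in LF), and of 5 tested adipocyte markers 1 was higher and 0 lower (378 to 614 TPM in HF and 298 to 385 TPM in LF, with Plin1, a defining marker, at 0.0552 TPM or less in every library). Most of each adipocyte sum was Fabp4 (351 to 529 TPM in HF and 274 to 372 TPM in LF). Adipoq was at 0.429 to 9.46 TPM in HF and 1.17 to 3.58 TPM in LF. Of 9 fibroadipogenic markers 1 was higher and 0 lower, with sums of 234 to 414 TPM in HF and 210 to 410 TPM in LF. Of 7 tested macrophage markers 0 were called (36.3 to 122 TPM in HF and 39.3 to 97.9 TPM in LF). Of 8 markers of mural cells, the contractile cells of vessel walls, Kcnj8 was higher, and Myh11, Notch3 and Des were lower. Their sums were 1920 to 2193 TPM in HF and 2277 to 2751 TPM in LF, without overlap, and most of each sum was Des, which muscle fibres express too. With size factors 2 mural markers were higher and 1 was lower. Of 8 slow fibre markers 2 were higher and 1 lower (37733 to 46538 TPM in HF and 31651 to 41527 TPM in LF), and of 8 fast fibre markers 0 were higher and 1 lower (18214 to 28092 TPM in HF and 22009 to 28052 TPM in LF). With size factors 3 slow fibre markers were higher and 0 lower, and 0 fast fibre markers were called. Under that scaling 6 endothelial and 6 Schwann cell markers were higher and 0 of either were lower. Over all tested genes 17.4% were higher and 22.6% lower under that scaling, against 6.03% and 35.3% in TPM as deposited. Part of the added marker calls thus goes with more higher calls over all genes. Of the tendon, satellite cell and erythroid markers 0 were called. The part of these cell types in the differences of the members was not tested.

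The second comparison is the one the series names, laparotomy against control. Averaged over HF and LF, 0 of the 10 members passed limma's test, as did 0% of all 10757 tested genes, and the lowest adjusted p among the members was 0.683. At an unadjusted p under 0.05 there were 3 members, Igfbp5, Igf1 and Igf2, against 6.94% of all tested genes (747). Igfbp5 had the largest of these differences, -0.30 ± 0.10 (95% interval -0.52 to -0.076; limma adjusted p = 0.683). Its mean was 26.8 TPM in HF laparotomy and 34.8 TPM in HF control, and 35.8 TPM in LF laparotomy and 46.8 TPM in LF control. Laparotomy over control was 0.770 in HF and 0.764 in LF.

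In LF, 0 members and 0% of all genes passed, and 2 members, Igfbp5 and Igf1, had an unadjusted p under 0.05, against 2.71% of all genes (291). The Igfbp5 libraries of LF laparotomy all lay below those of LF control, as those of 3.92% of all genes did (log2 difference -0.35 ± 0.14; limma adjusted p = 1). Igf1 averaged 0.930 ± 0.237 TPM in LF laparotomy and 1.38 ± 0.180 TPM in LF control (SD, n = 3 each), and the ranges met at 1.19 TPM. Its log2 difference was -0.28 ± 0.14 (95% interval -0.58 to 0.023; limma adjusted p = 1).

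In HF, again 0 members and 0% of all genes passed, and 2 members, Igf2 and Igfbp5, had an unadjusted p under 0.05, against 6.18% of all genes (665). Igf2 averaged 12.8 ± 0.253 TPM in HF laparotomy and 10.3 ± 0.759 TPM in HF control (SD, n = 3 each), without overlap. Of all tested genes 0.604% lay wholly above and 16.6% wholly below in this contrast. Its log2 difference was 0.41 ± 0.11 (95% interval 0.18 to 0.64; limma adjusted p = 0.655). In LF the same difference was 0.091 ± 0.11, and the test of the difference between HF and LF gave 0.32 ± 0.15 (95% interval -0.009 to 0.64; limma adjusted p = 1).

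The receptors and Irs1 lay close to the median gene after laparotomy: averaged over HF and LF, Igf1r was at 0.015 ± 0.078, Insr at 0.024 ± 0.084 and Irs1 at -0.066 ± 0.15, with 95% intervals of -0.15 to 0.18, -0.16 to 0.21 and -0.38 to 0.25 (log2). These intervals do not show that the levels were alike, but bound the difference. For the interaction, 0 members and 0% of all genes passed, and 0 members had an unadjusted p under 0.05, against 3.08% of all genes (331).

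**Figure D3:**
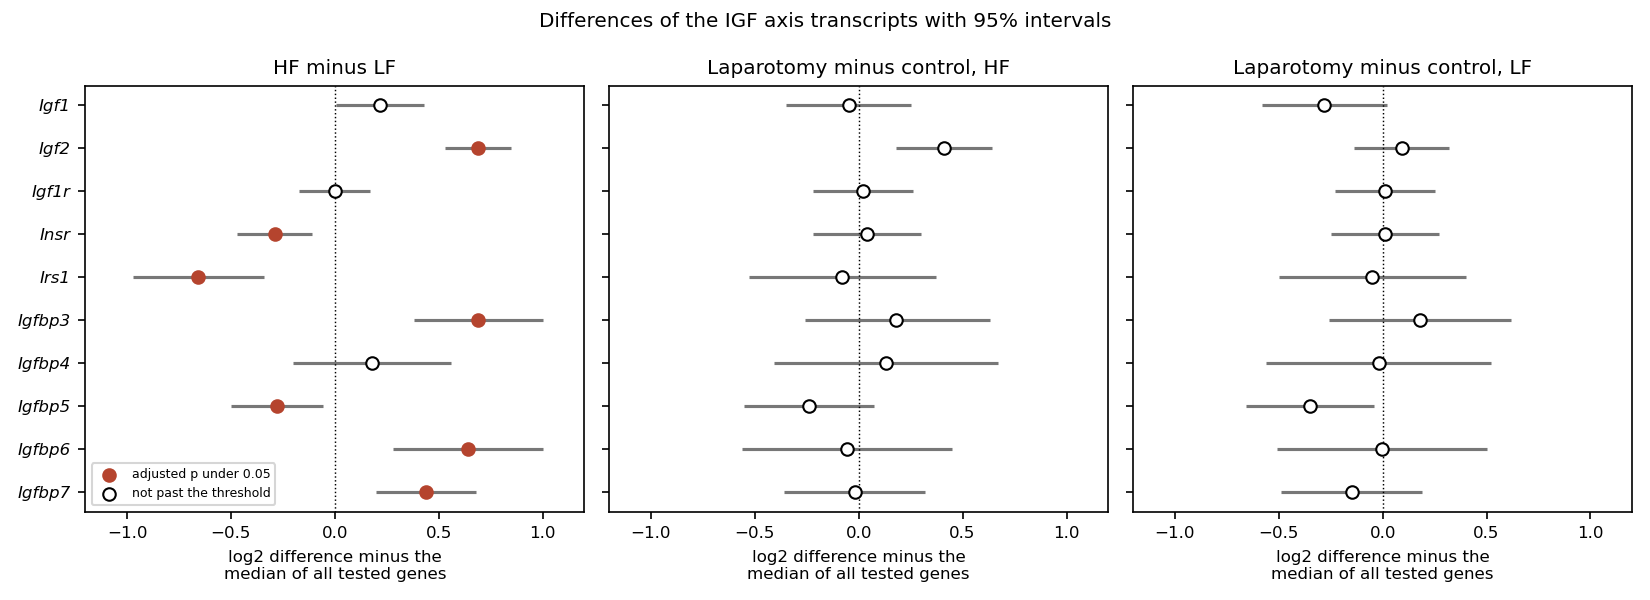
Log2 differences minus the median of all tested genes (x axis) of the 10 members (y axis) for HF minus LF, for laparotomy minus control in HF and for laparotomy minus control in LF; lines are 95% intervals, and filled points passed the limma test, which is of the difference before the median was subtracted. Of 10 members 7 are filled for HF minus LF and 0 for laparotomy.

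The other genes of the pathway were described by a list of the ligand and binding side and a list of receptor signalling. Of 19 genes of the first list, 18 were in the table (H19 is not analysed here) and 9 were tested. Igfbp1, a liver binding protein, was listed at 0 TPM throughout. Pappa (0.00869 to 0.0284 TPM) and Pappa2 (0.00771 to 0.343 TPM), proteases that cleave binding proteins, Igfals (0.210 to 0.604 TPM), the acid-labile partner of circulating IGF complexes, and Stc1 (0.119 to 0.430 TPM), an inhibitor of those proteases, were below the minimum. So were Igf2bp1 (up to 0.149 TPM), Igf2bp2 (0.219 to 0.731 TPM) and Igf2bp3 (up to 0.0373 TPM), which bind IGF2 mRNA, and Socs3 (0.557 to 1.48 TPM), an inhibitor of cytokine signalling. Igfbp2 (0.349 to 4.18 TPM), Stc2 (0.883 to 1.76 TPM), Htra1, a protease (5.98 to 8.57 TPM), and Socs2, a brake on growth hormone signalling (1.91 to 3.34 TPM), were tested and not called in TPM as deposited.

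In HF against LF, 0 of the 9 tested genes rose and 5 fell, with a median of -0.19, against 6.03% higher and 35.3% lower over all tested genes. With size factors 1 rose and 5 fell, against 17.4% higher and 22.6% lower over all tested genes. The gene that rose was Socs2 (limma adjusted p = 0.0205 with size factors). In the main fit Socs2 was at 0.36 ± 0.098 and did not pass (limma adjusted p = 0.104). Igf2r, the receptor that takes IGF2 to lysosomes, was at 12.0, 12.0 and 15.0 TPM in HF laparotomy, 15.7, 19.7 and 13 TPM in HF control, 18.5, 23.9 and 25.3 TPM in LF laparotomy and 23.0, 24.4 and 23.4 TPM in LF control. HF and LF overlapped only at HF control 2 and LF laparotomy 1, and the difference was -0.50 ± 0.11 (limma adjusted p = 0.00102). The ratio of ligand to this receptor, Igf2 over Igf2r in TPM, was 0.521 to 1.07 in HF and 0.285 to 0.413 in LF libraries, without overlap. Since Igf2 itself lay wholly above in HF and Igf2r was called lower, the ratio adds no separate evidence. It is a description and carries no test. The growth hormone receptor Ghr (-0.35 ± 0.094, limma adjusted p = 0.00176) and the factors through which it induces Igf1, Stat5b (-0.44 ± 0.097, adjusted p = 0.00101), Stat5a (-0.37 ± 0.10, adjusted p = 0.00211) and the kinase Jak2 (-0.19 ± 0.076, adjusted p = 0.00473), fell as well. Ghr was at 21.9 to 34.3 TPM in HF and 30.8 to 46.7 TPM in LF libraries. Igf1 itself did not pass.

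Of the 37 signalling genes, all were tested, and 1 rose and 24 fell in HF, with a median of -0.16, against the same 6.03% higher and 35.3% lower over all tested genes. With size factors 2 rose and 15 fell, while 17.4% of all tested genes rose and 22.6% fell under that scaling. Slc2a4, the insulin-regulated glucose transporter, was at 153 to 204 TPM in HF and 199 to 319 TPM in LF libraries (-0.48 ± 0.11, limma adjusted p = 0.00146). The genes with the smallest p were Rptor, the mTORC1 scaffold (-0.46 ± 0.095, limma adjusted p = 0.000747), Pdpk1, the kinase that activates AKT (-0.48 ± 0.098, adjusted p = 0.000771), the adaptor Grb2 (-0.47 ± 0.10, adjusted p = 0.000952) and its partner Sos1 (-0.36 ± 0.087, adjusted p = 0.00117). They were followed by Gsk3b, a kinase that AKT inhibits (-0.56 ± 0.12, adjusted p = 0.00128), Grb10, an adaptor that restrains both receptors (-0.33 ± 0.086, adjusted p = 0.00154), and Pik3ca, a catalytic subunit of PI3 kinase (-0.33 ± 0.091, adjusted p = 0.00184). Ddit4, an inhibitor of mTORC1 named after its values were seen as the single gene that rose, was at 4.79 to 9.88 TPM in HF and 3.46 to 5.40 TPM in LF libraries (0.75 ± 0.13, limma adjusted p = 0.00341). In each laparotomy comparison 0 genes of either list passed.

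**Figure D4:**
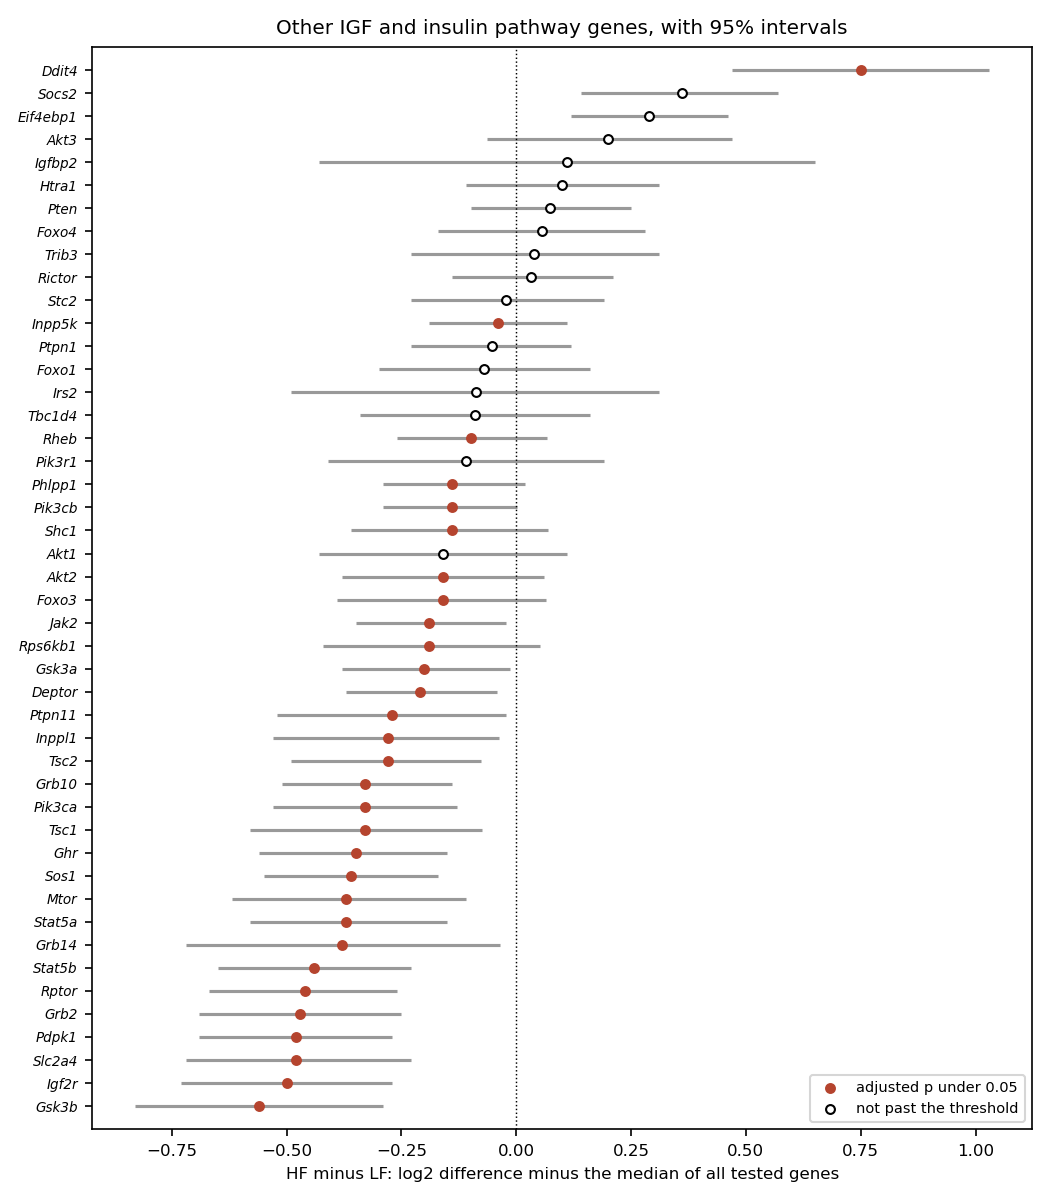
HF minus LF log2 differences minus the median of all tested genes (x axis) for the tested genes of both pathway lists (y axis, sorted), with 95% intervals; filled points passed the limma test, which is of the difference before the median was subtracted. Ddit4 (0.75) stands at the top and Gsk3b (-0.56) at the bottom, and most filled points lie below 0.

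The likeness of the members to each other was then measured. With each profile of log2(TPM + 1) standardised over the 12 libraries, the root-mean-square distance was smallest between Insr and Irs1 (0.388), then between Igf1r and Insr (0.557) and between Igf2 and Igfbp3 (0.717), and largest between Igf2 and Insr (1.92). Across 10250 named genes, the nearest to Igf2 were Ramp2 (0.316), Anapc4 (0.381) and Med12 (0.397), and the nearest to Irs1 were Esrrg (0.153), Cfap97 (0.177) and Asb7 (0.183). Nearest to Insr were Hnrnpc (0.161), Abraxas2 (0.169) and Ddx19a (0.172), and nearest to Igf1r were Wdr47 (0.188), Atrx (0.215) and Sp1 (0.263). For Igfbp5 they were Depdc7 (0.313), Exoc6b (0.322) and Lztfl1 (0.352). The median distance over all these genes was 1.72 for Igf2, 0.895 for Irs1, 0.888 for Insr, 0.921 for Igf1r and 0.977 for Igfbp5.

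Igfbp7 was nearest to Mgp (0.374), the matrix Gla protein, Gimap9 (0.423) and Cyp4b1 (0.497), Igfbp6 to Anxa8 (0.355), Rab3il1 (0.378) and Cyba (0.394), and Igfbp4 to Vsir (0.381), Lpar1 (0.454) and Emp3 (0.478). Igfbp3 was nearest to Sgf29 (0.469), Tcf15 (0.496) and Smagp (0.557), and Igf1 to Gfra1 (0.442), Mgl2 (0.523), a marker of tissue macrophages, and Fads3 (0.569). All points of these profiles come from the same 12 libraries and share their scaling, and the distances are a description with no test.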

How the data were processed

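Gene-level TPM were deposited by the authors for 12 libraries. Per the submitters' processing notes, kallisto, DESeq2 and the GRCm38 build were used, with versions and roles not given. Per the labels' protocols, polyA-selected libraries were made with a stranded Illumina kit from RNA taken up in QIAzol and cleaned on columns. TPM sums were 956473 to 962830, so no counts or depths could be had. GENCODE M21 gave symbols for 29857 identifiers (466 had none).

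Log2(TPM + 1) was tested for the 10757 genes that averaged 1 TPM or more, with limma 3.58.1 in R 4.3.3 (two-sided moderated test, trended variance, 4 group means, 8 residual degrees of freedom). P-values were adjusted by Benjamini-Hochberg over all tested genes in each of 5 contrasts, at a threshold of 0.05. The fit was run on simulated data with known changes in a small set of genes. That setting held no shift of the median gene, unlike HF minus LF here, so it does not test those calls. No libraries were identical. Named pathway genes were up to 8 per list past the threshold by smallest p. The members, lists and tests were chosen with earlier results of these data known.

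Alternatives were quantile normalization, scaling by median-of-ratios size factors, TPM recomputed after dropping 13 mitochondrially encoded and the 10 most abundant genes, a pseudocount of 0.1, a minimum mean of 5 TPM or none, a fit of only the groups compared, removal of a length and GC trend, and leaving out each library or the 3 with Myh4 above 30 TPM. Leaving out HF laparotomy 3 and LF control 1 together was added after seeing the data.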

Additional observations from a re-analysis of the deposited data

How the results depend on the processing

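For HF minus LF, 5 to 7 of the 10 members were called over all alternatives, and over those that left out 1 library too. At a mean of at least 5 TPM, Igf1, Igf1r and Irs1 were not among the members tested. Over all tested genes 3278 to 5100 were called (3627 to 5100 with 1 library left out). The number of genes tested changed with the filter, so these counts are not shares. The 3278 calls, at a mean of at least 5 TPM, were 7.42% higher and 41.8% lower of the genes tested there. No filter gave 3760 calls, 2.28% higher and 14.3% lower, against 6.03% and 35.3% in the main fit. Igf2, Insr and Irs1 kept their calls and directions in every alternative computed (Irs1 was not tested at a mean of at least 5 TPM). Igfbp7 lost its call with a pseudocount of 0.1 (adjusted p = 0.0509), no filter (0.127), the Myh4 libraries left out (0.0765) and the length and GC trend removed (0.285). Igfbp6 lost it with no filter (0.107), the length and GC trend removed (0.134) and the Myh4 libraries left out (0.0615). Of 1055 alternative values of single members over the 5 contrasts, 1032 stayed on their side of the threshold, 23 lost the call with the same direction, and 0 called differences changed sign. Most of these values come from the laparotomy and interaction contrasts, where no member was called and no call could be lost. All 23 losses were in HF minus LF. There the call was kept in 8 of 21 alternatives for Igfbp7, 13 of 21 for Igfbp6, and 20 of 21 each for Igfbp3 and Igfbp5.

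For laparotomy, all-gene counts of 0 became, with no filter, 2 averaged, 5 in LF, 1 in HF and 2 for the interaction. They became 1 in LF and 3 in HF in a fit of only the groups compared, and 1 in LF without the Myh4 libraries. With 1 library left out they were 0 to 2 averaged and 0 to 1 in LF, in HF and for the interaction. The members' count stayed at 0 in all of these. The cause was not tested. No paired analysis was possible because the replicate numbers were given in accession order and pair nothing. The read depth is unknown, so what it limits could not be measured.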
